A study of Homo sapiens with 12 samples.

Results

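Fc receptors bind the constant part of antibodies, and the genes described here are the human Fc receptor genes FCGR1A, FCGR2A, FCGR2B, FCGR3A, FCER1G, FCGRT and FCAR in the AML cell line U937. The members were all transcripts whose gene symbol in the table was 1 of these 7, out of 44786 symbols. They held 178 of the 197782 transcripts listed. Reads were found for 5 of the 7 genes and for 20 of the 178 transcripts, of which 7 transcripts of 4 genes had at least 10 normalized reads in at least 3 libraries and could be tested.

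U937 is an established human monocytic leukaemia line, grown per the labels in medium with 20% fetal calf serum, 1% penicillin/streptomycin and 5 ng/ml GM-CSF, also in the untreated cells, whereas the study's methods give less serum and name no GM-CSF, and have ATRA added later than the first DAC dose. RNA-seq of ribosomal-RNA-depleted RNA was available for 4 groups of 3 libraries each: untreated cells, cells given 200 nM of the DNA-hypomethylating agent decitabine (DAC), cells given 1 µM of all-trans retinoic acid (ATRA), and cells given both (DAC + ATRA). The labels give 96 h for untreated and 72 h for treated cells, whereas the series' design text names a harvest after 72 h, so if the labels hold, time and treatment cannot be told apart in comparisons with untreated cells. The series' design text calls the 3 libraries of a group technical triplicates, although they differed by more than counting noise (chi-square per degree of freedom 3.21 to 14.9 between libraries of a group), so every p-value measures only the spread between these libraries. The table's columns name the group of each library, here called libraries 1 to 3 (untreated), 4 to 6 (DAC), 7 to 9 (ATRA) and 10 to 12 (DAC + ATRA).

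Myeloid cells carry activating receptors for IgG, which signal through a tyrosine-based activation motif (ITAM), and an inhibitory receptor, FCGR2B, which carries an inhibitory motif (ITIM) in its tail. FCGR2A holds its ITAM in its own tail, whereas FCGR1A, FCGR3A and the IgA receptor FCAR signal through the common gamma chain encoded by FCER1G. FCGRT encodes the heavy chain of the neonatal Fc receptor, which carries IgG through endosomes and spares it from breakdown. In bulk RNA, fewer cells that express a gene and less RNA per cell cannot be told apart.

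Between 8042435 and 10683593 reads were counted per library. Of the 14 myelomonocytic markers examined, 7 had a mean of at least 10 normalized reads in their leading coding transcript (MPO, CEBPA, CD4, ITGAM, LYZ, SPI1 and ITGB2). Another 6 had a mean below 1 (CD14, CD68, CD33, CSF1R, CSF2RA and PTPRC, the last pair at 0). Reads were counted per transcript, as described below. Bases found in no other transcript were not determined for any marker, so a low mean says little about the gene. With DAC + ATRA, 2937 of 9016 protein-coding transcripts rose (32.6%) and 1278 fell (14.2%) at an adjusted p below 0.01 (limma on log2 of the normalized read count plus 1, all 12 libraries in 1 fit). The deposited scaling placed the median protein-coding transcript 0.22 above 0 on the log2 scale with DAC and 0.20 above 0 with DAC + ATRA, and edgeR with TMM scaling on the recovered reads placed it at 0.02 and 0.06. Under edgeR with TMM, which changes both test and scaling, the share of calls that were higher went from 77.9% to 58.9% with DAC, from 69.7% to 59.0% with DAC + ATRA, from 74.5% to 63.7% for DAC + ATRA against ATRA, and from 70.8% to 60.6% with ATRA. For DAC + ATRA against DAC it went from 53.6% to 58.7%. With limma and library-size scaling the share was 65.5% with DAC, 58.6% with DAC + ATRA, 66.3% against ATRA, 54.6% with ATRA and 47.4% against DAC.

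Reads were counted per transcript, and this set what could be seen of each receptor. The members had 63 transcripts that could be placed on hg38 with GENCODE 44, and 30 of them share every exon base with another annotated transcript. None of these 30 had a read, against 20 of the 33 transcripts with at least 1 base of their own. A count is therefore a count over the transcript's own bases, not over the gene. For FCGR2A ENST00000271450 these were 1073 of 2646 bases, all in the last exon. For FCGR1A ENST00000369168 they were 255 of 1333 bases, all in coding sequence. For the coding FCGRT transcript ENST00000221466 they were only 95 of 1511 bases. Levels of different genes are compared below only per kilobase of such bases.

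**Figure D1:**
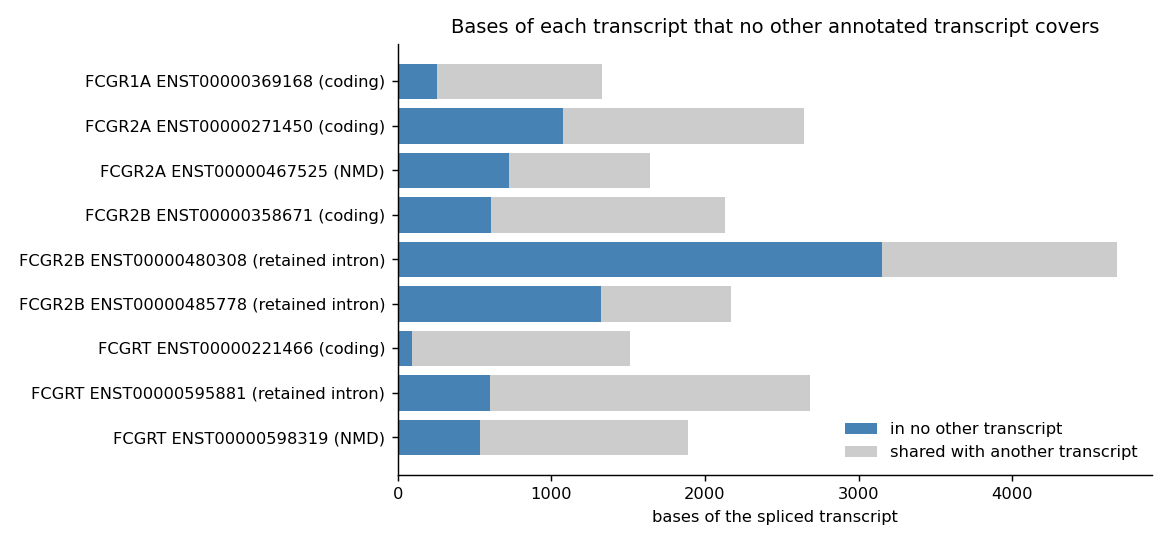
Bars give the length of 9 Fc receptor transcripts in bases, with the bases found in no other annotated transcript in blue and shared bases in grey. The retained-intron form ENST00000480308 of FCGR2B had the most bases of its own, 3154, and the coding form of FCGRT the fewest, 95.

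In untreated cells FCGR1A ENST00000369168 had 631 normalized reads per kilobase of its own bases and FCGR2A ENST00000271450 had 356. The retained-intron transcripts that led FCGRT and FCGR2B had 50.9 and 15.5 on the same scale. On this scale the transcripts of the activating receptors FCGR1A and FCGR2A were thus the higher ones. The FCGRT and FCGR2B values come from sequence outside coding exons, so they do not rank the receptors.

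The activating receptors FCGR1A and FCGR2A lie apart on chromosome 1, and the 250 bases before their start sites are shown because both genes were lower with DAC + ATRA than with DAC. The sequences are from RefSeq on GRCh38.p14, plus strand, chr1:149782444-149782693 for FCGR1A and chr1:161505207-161505456 for FCGR2A. Capitals mark the longest run of letters that both share.
FCGR1A: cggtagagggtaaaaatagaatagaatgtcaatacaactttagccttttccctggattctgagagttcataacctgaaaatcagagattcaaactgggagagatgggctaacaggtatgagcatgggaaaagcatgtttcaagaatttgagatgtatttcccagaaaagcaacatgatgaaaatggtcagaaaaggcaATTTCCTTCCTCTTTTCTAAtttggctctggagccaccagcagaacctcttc
FCGR2A: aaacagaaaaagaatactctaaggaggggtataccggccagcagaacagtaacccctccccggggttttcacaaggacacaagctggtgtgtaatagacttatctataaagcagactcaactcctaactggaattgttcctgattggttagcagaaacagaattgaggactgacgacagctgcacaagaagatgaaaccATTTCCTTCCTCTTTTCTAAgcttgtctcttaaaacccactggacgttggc
The shared run is 20 bases long and begins 52 bases before the start of FCGR1A and 51 bases before that of FCGR2A. Among 35116 promoter windows of the same length, it was found in these 2 alone, and no other pair of members shared more than 11 bases in a row. On the reverse strand the run holds the letters GAGGAA, the core that the myeloid factor PU.1 is known to bind, which 23.6% of all windows hold on either strand. FCGR1A also held the letters TTCCCAGAA from 93 to 85 bases before its start, a match to the interferon-response pattern TTCNNNGAA, which 6.57% of all windows hold. These matches are letters in a window, not shown to be bound. The windows of FCGR1A and FCGR2A held 1 and 4 CpG dinucleotides, against a median of 11 over all windows.

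FCGR2A, the low-affinity activating receptor, was higher with DAC, lower with ATRA, and back near the untreated level with both. The transcript ENST00000271450 (chr1:161505457-161519829, plus strand) had 373, 371 and 401 normalized reads in the untreated libraries and 665, 577 and 543 with DAC. It had 245, 239 and 231 with ATRA and 405, 417 and 372 with DAC + ATRA. All DAC libraries were above and all ATRA libraries below every library of the other groups, and the untreated and DAC + ATRA libraries overlapped.

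Against untreated cells FCGR2A rose 1.55-fold with DAC (log2 fold change 0.63 ± 0.11 SE, adjusted p = 6.13e-05, limma) and fell to 0.626 of the untreated level with ATRA (log2 fold change -0.68 ± 0.11, adjusted p = 1.27e-04). With both it was 0.06 above the untreated level on the log2 scale, with a 95% interval from -0.17 to 0.29 (adjusted p = 0.669), and under the other scalings this small difference was below 0. FCGR2A was lower with DAC + ATRA than with DAC (log2 fold change -0.57, adjusted p = 6.33e-04) and higher than with ATRA (0.73, adjusted p = 1.13e-05). The interaction, the log2 difference between the joint change and the sum of the separate changes, was 0.10 with a 95% interval from -0.22 to 0.42 (adjusted p = 0.805), so a departure from additive log2 changes was not shown.

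FCGR1A, the high-affinity IgG receptor, was highest with DAC and did not keep that level when ATRA was added. The transcript ENST00000369168 (chr1:149782694-149791675, plus strand) had 183, 163 and 137 normalized reads in untreated cells and 251, 202 and 244 with DAC. It had 163, 149 and 104 with ATRA and 122, 125 and 148 with DAC + ATRA. The DAC libraries stood above all others, and the other 3 groups overlapped.

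FCGR1A was lower with DAC + ATRA than with DAC alone (log2 fold change -0.81 ± 0.17 SE, adjusted p = 0.00141, limma), at 0.570 of the DAC level. This call was lost without library 4 (adjusted p = 0.0125) and without library 10 (adjusted p = 0.0123). Its rise of 1.44-fold with DAC missed the threshold (log2 fold change 0.53 ± 0.17, adjusted p = 0.0122), and over the other scalings, filters and tools the value lay between 0.29 and 0.53 with adjusted p from 0.00579 to 0.136. It passed without library 1 (adjusted p = 0.00988), library 5 (0.00922), library 7 (0.00977) or library 9 (0.00303). Neither ATRA (log2 fold change -0.23, adjusted p = 0.435) nor DAC + ATRA (-0.28, adjusted p = 0.162) gave a called difference from untreated cells.

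FCGR1A and FCGR2A were the only members with a protein-coding transcript in the fit. Both were called lower with DAC + ATRA than with DAC, where 5.26% of the 9016 protein-coding transcripts were called lower and 6.08% higher. With DAC 1 of the 2 was called higher, where 30.6% of all were higher and 8.7% lower. With ATRA 1 of the 2 was called lower, where 2.67% of all were lower and 6.47% higher. Against ATRA 1 of the 2 was called higher with DAC + ATRA, where 25.9% of all were higher and 8.88% lower. In the interaction neither was called, where 0.787% of all were above and 1.67% below 0.

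FCGR1A shares nearly all its sequence with the copies FCGR1B and FCGR1C, and only 24.3% of the 50-base windows in its own bases occur once on chromosome 1. Reads of these copies cannot be fully told apart. The 3 FCGR1B transcripts with reads summed to 32.2, 46.4 and 50.8 normalized reads in untreated cells, 69.2, 44.8 and 55.8 with DAC, 24.3, 33.7 and 22.5 with ATRA, and 36.2, 45.3 and 54.4 with DAC + ATRA. The groups overlapped, apart from ATRA against DAC and against DAC + ATRA, and no FCGR1B transcript was called in any comparison. No transcript carried the symbol FCGR1C.

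A second FCGR2A transcript, ENST00000467525, annotated as a target of nonsense-mediated decay, did not follow the coding form. It had 4.6, 1.8 and 2.8 normalized reads in untreated cells, 11.9, 14.6 and 12.9 with DAC, 4.2, 2.7 and 6.7 with ATRA, and 16.3, 16.8 and 9.9 with DAC + ATRA. Every library with DAC, alone or with ATRA, was above every library without it. It reached 10 normalized reads only in libraries with DAC and so entered the fit through the groups where it is high, and no test is given. The other 6 FCGR2A transcripts with reads stayed at or below 5.3 normalized reads in every library.

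**Figure D2:**
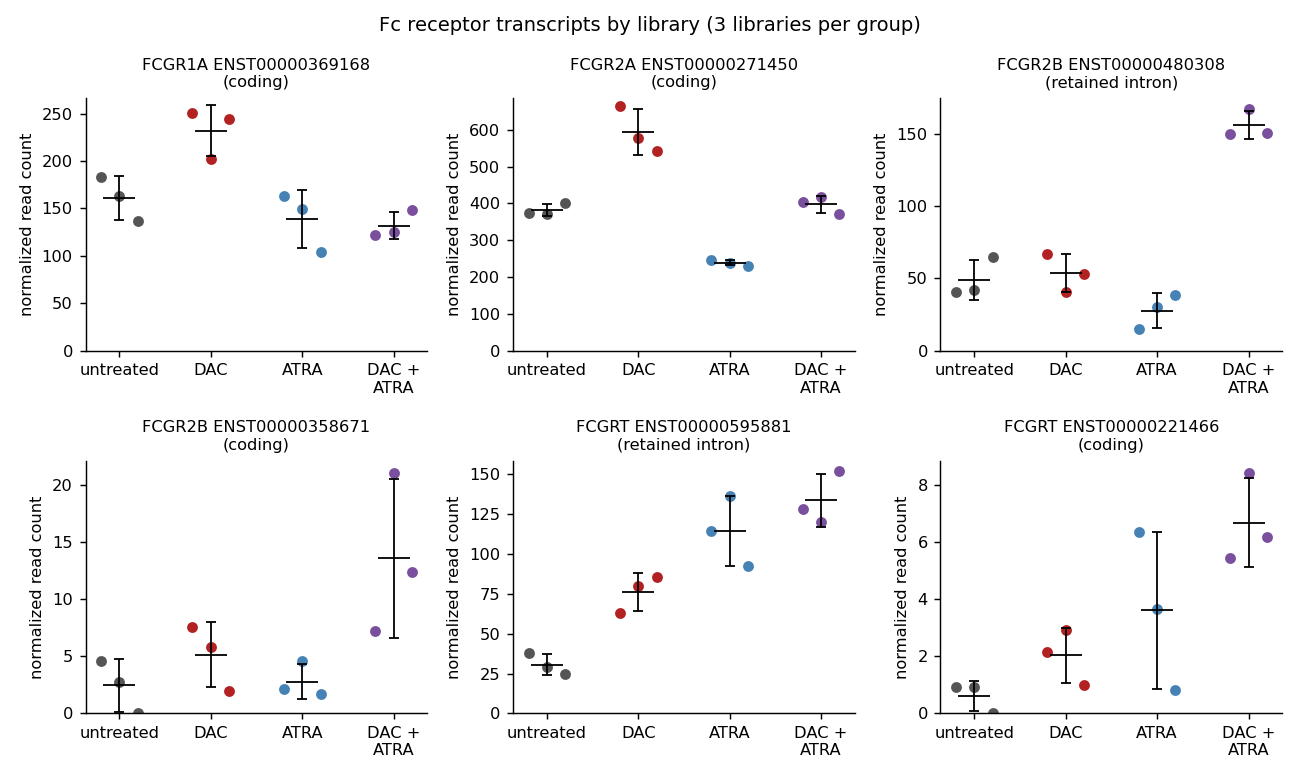
Points give the normalized read count of 6 Fc receptor transcripts in each of the 12 libraries, by group, with the group mean and SD (n = 3) in black, and the y axes differ between panels. FCGR2A was highest with DAC and lowest with ATRA, whereas the 3 DAC + ATRA libraries of FCGR2B ENST00000480308 lay between 150.1 and 167 normalized reads, above all others.

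FCGR2B, the inhibitory receptor, was counted mainly through intronic reads, and these were highest in the DAC + ATRA libraries. Its main counted transcript was ENST00000480308 (chr1:161663192-161678053, plus strand), a retained-intron form. It had 40.4, 41.9 and 64.6 normalized reads in untreated cells, 67.0, 40.9 and 52.8 with DAC, 14.8, 30.0 and 38.3 with ATRA, and 150.1, 167 and 151 with DAC + ATRA. The untreated and DAC libraries overlapped, the ATRA libraries lay below the untreated ones, and the DAC + ATRA libraries stood above all others.

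With DAC + ATRA this FCGR2B transcript rose 3.21-fold over untreated cells (log2 fold change 1.68 ± 0.27 SE, adjusted p = 1.37e-05, limma over all transcripts), 2.93-fold over DAC (adjusted p = 1.97e-04) and 5.85-fold over ATRA (adjusted p = 4.89e-08). Neither DAC alone (log2 fold change 0.13, adjusted p = 0.712) nor ATRA alone (-0.87, adjusted p = 0.0365) passed the threshold, although the fall with ATRA passed without library 9 (adjusted p = 0.00391) and with no filter (adjusted p = 0.00562). The interaction was 2.42 ± 0.38 on the log2 scale (adjusted p = 3.48e-04), so the joint change was 5.34-fold above the product of the separate changes. A positive interaction was called for 0.527% of the 19373 transcripts.

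The own bases of ENST00000480308 are 3154 bases outside the coding exons of FCGR2B, so its reads came from intronic sequence, and 197 of these bases overlap an exon on the other strand. The coding transcript ENST00000358671 (chr1:161663143-161678654) has 605 bases of its own, of which 601 lie in the last exon, and every 50-base window within these occurs once on chromosome 1. It had 4.6, 2.7 and 0 normalized reads in untreated cells, 7.6, 5.8 and 2.0 with DAC, 2.1, 4.6 and 1.7 with ATRA, and 7.2, 21.1 and 12.4 with DAC + ATRA. The DAC + ATRA libraries lay above all untreated and ATRA libraries and overlapped with DAC. It was below the filter, and an exact two-sided permutation test of DAC + ATRA against untreated gave p = 0.1, the smallest that 3 libraries against 3 can give.

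The second retained-intron form, ENST00000485778, had 2.8, 9.1 and 9.2 normalized reads in untreated cells, 9.7, 11.7 and 16.9 with DAC, 8.4, 4.6 and 9.2 with ATRA, and 34.4, 44.2 and 49.4 with DAC + ATRA. Again the DAC + ATRA libraries did not overlap with any other group. It reached 10 normalized reads in no untreated or ATRA library and entered the fit through the groups where it is high, so no test is given. The sum over all 3 FCGR2B transcripts rose 3.64-fold with DAC + ATRA (adjusted p = 1.16e-07) with an interaction of 2.21 on the log2 scale (adjusted p = 6.16e-05). Most of this sum is reads of ENST00000480308, so it is not independent of the result given for that transcript.

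FCGR2C, a neighbouring gene nearly identical to FCGR2B in its 5' part but with an activating tail like that of FCGR2A, was also highest in the DAC + ATRA libraries. Its start region is a copy of that of FCGR2B, so the 250 bases before the FCGR2B start (RefSeq, GRCh38.p14, chr1:161662893-161663142, plus strand) are shown, with matches to TTCNNNGAA in capitals.
FCGR2B: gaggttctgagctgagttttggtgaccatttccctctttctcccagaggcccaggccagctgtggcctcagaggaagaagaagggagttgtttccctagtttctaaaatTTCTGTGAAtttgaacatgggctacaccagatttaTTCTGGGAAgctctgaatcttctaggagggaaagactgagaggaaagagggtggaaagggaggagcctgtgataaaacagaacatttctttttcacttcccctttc
All 250 of these bases recur without a difference at chr1:161581089-161581338, directly before the start of FCGR2C ENST00000496692. Of the FCGR2C transcripts described next, ENST00000473530 starts close behind this copy and ENST00000467903 further downstream. The window holds no CpG dinucleotide and shared no run longer than 9 bases with that of FCGR1A or FCGR2A. It holds the letters TTCNNNGAA at 2 places, GAGGAA at 2 places, and the core of the interferon-stimulated response element (ISRE) at 1 place, a pattern in 3.02% of all windows on either strand. The nuclear receptor half-site AGNTCA, in 34.0% of all windows, was also searched for and had 1 match in the window of FCGR2B, 1 in that of FCGR1A and none in that of FCGR2A or FCGRT.

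The transcript ENST00000467903 of FCGR2C had 11.9, 11.8 and 8.3 normalized reads in untreated cells, 27.0, 23.4 and 22.9 with DAC, 5.3, 7.3 and 15.0 with ATRA, and 131, 133 and 124 with DAC + ATRA. The DAC libraries lay above the untreated ones, and the DAC + ATRA libraries far above both. It rose 11.2-fold with DAC + ATRA (log2 fold change 3.49 ± 0.29 SE, adjusted p = 1.22e-10, limma over all transcripts) and 2.19-fold with DAC (adjusted p = 0.00208), and ATRA alone gave no called change (log2 fold change -0.30, adjusted p = 0.603). The interaction was 2.66 ± 0.40 (adjusted p = 1.50e-04). The rise with DAC was lost without library 3 (adjusted p = 0.0155) and without library 4 (adjusted p = 0.0113).

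Of the own bases of this FCGR2C transcript, 81.1% of the 50-base windows occur once on chromosome 1, against 73.2% for FCGR2B ENST00000480308. Where the other windows recur was not traced, so part of the reads of each transcript may not be assignable to a single gene. A second FCGR2C transcript, ENST00000473530, had 57.0, 36.8 and 66.7 normalized reads with DAC + ATRA and at most 15.1 in the other libraries. The transcript ENST00000543859 had 43.4, 33.7 and 55.6 with DAC + ATRA and at most 10.7 elsewhere. Neither reached 10 normalized reads in an untreated or ATRA library, so both entered the fit through the groups where they are high, and no test is given.

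**Figure D3:**
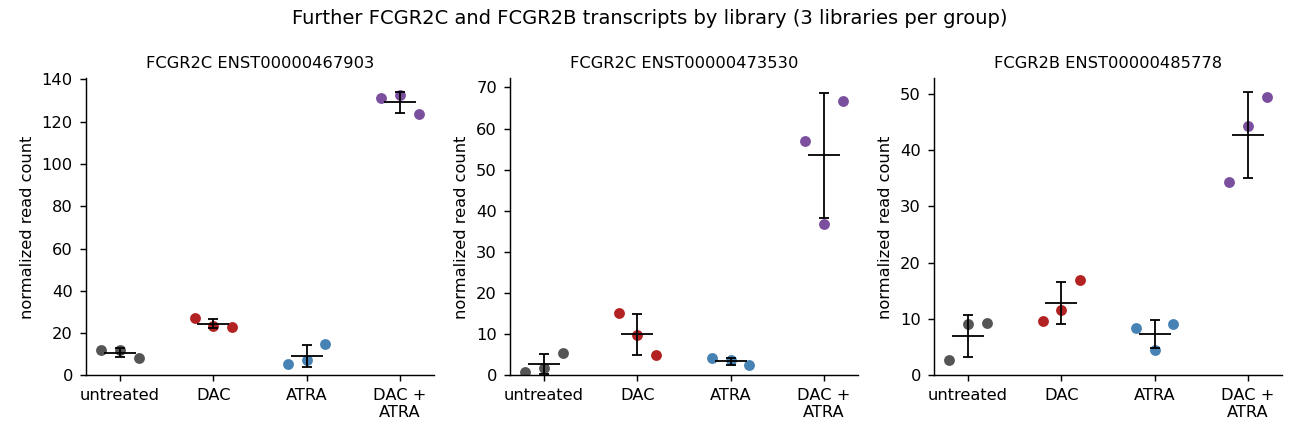
Points give the normalized read count of 2 FCGR2C transcripts and 1 further FCGR2B transcript in each library, by group, with mean and SD (n = 3) in black. In all 3 panels the DAC + ATRA libraries lie above every other library, for FCGR2C ENST00000467903 at 124 to 133.

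Because FCGR2B is also a receptor of B cells, lymphoid markers are given beside it. The 9 lymphoid markers summed to between 144 and 155 normalized reads in untreated cells, 842 to 909 with DAC, 245 to 383 with ATRA and 1444 to 1524 with DAC + ATRA. CD79A went from a mean of 131 in untreated cells to 513 with DAC, 314 with ATRA and 1336 with both, and was higher with both than with DAC (adjusted p = 4.24e-07, limma). CD2 was highest with DAC, at 349 against 5.52 in untreated cells, and lower with both, at 141 (adjusted p = 0.00463 against DAC). NCAM1 had a mean of 12.2 in untreated cells and 12.5 with both. Markers of other lineages were also higher with DAC and with both than in untreated cells. The summed erythroid, platelet and mast cell markers had 17.5 to 30.5, 161 to 195, 23.3 to 37.3 and 131 to 133 normalized reads in untreated, DAC, ATRA and DAC + ATRA libraries, and the summed epithelial and fibroblast markers 13.7 to 21.2, 207 to 269, 45.4 to 50.1 and 122 to 156. CD3E was at 0 in every library, and MS4A1 had a mean of 0.416. The summed myelomonocytic markers had 60048 to 67380 normalized reads in untreated cells, 37892 to 55309.5 with DAC, 40329 to 58349 with ATRA and 34989 to 37735 with both. The largest part of this sum was MPO, which had a mean of 52120 in untreated cells and 14973 with both. Of the 7 myelomonocytic markers tested with both against untreated cells, 3 were called higher (ITGAM, LYZ and CEBPA) and 1 lower (MPO). The part of these markers in the FCGR2B and FCGR2C results was not tested.

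FCGRT, which encodes the neonatal Fc receptor heavy chain, was higher with each agent alone and with both. The leading transcript ENST00000595881 (chr19:49513195-49526331, plus strand), a retained-intron form, had 37.7, 29.1 and 24.9 normalized reads in untreated cells and 62.7, 79.9 and 85.7 with DAC. It had 114, 137 and 92.4 with ATRA and 128, 120.0 and 152 with DAC + ATRA. The untreated libraries were lowest, the DAC libraries came next without overlap, and the ATRA and DAC + ATRA libraries overlapped at the top.

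This FCGRT transcript rose 2.45-fold with DAC (log2 fold change 1.29 ± 0.19 SE, adjusted p = 3.99e-06, limma over all transcripts), 3.66-fold with ATRA (1.87 ± 0.19, adjusted p = 5.04e-08) and 4.30-fold with both (2.10 ± 0.19, adjusted p = 8.79e-10). DAC + ATRA was 1.75-fold above DAC (adjusted p = 0.00397), a call lost without library 4, library 10 or library 12 (adjusted p up to 0.0363). Against ATRA the difference was 0.23 on the log2 scale, with a 95% interval from -0.16 to 0.63 (adjusted p = 0.355). The interaction of -1.06 ± 0.27 missed the threshold (adjusted p = 0.0262) and passed it without library 9 (-1.21, adjusted p = 0.00618). A positive change was called for 22.2% of the 19373 transcripts with DAC, 5.11% with ATRA and 25.5% with both.

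The 601 own bases of ENST00000595881 lie outside coding exons and in sequence found once on chromosome 19. The transcript ENST00000598319, annotated for nonsense-mediated decay, had 3.7, 2.7 and 2.8 normalized reads in untreated cells and 16.3, 15.8 and 24.7 with DAC + ATRA. It reached 10 normalized reads in all DAC + ATRA libraries and 1 ATRA library alone, so it entered the fit through the group where it is high, and no test is given. The coding transcript ENST00000221466 had 0.92, 0.91 and 0 normalized reads in untreated cells, 2.2, 2.9 and 1.0 with DAC, 6.3, 3.6 and 0.83 with ATRA, and 5.4, 8.4 and 6.2 with DAC + ATRA. Its DAC + ATRA libraries lay above all untreated and DAC libraries. All untreated libraries were below 3 reads, and an exact two-sided permutation test of DAC + ATRA against untreated gave p = 0.1, the smallest possible. The partner of the FCGRT chain, beta-2-microglobulin (B2M), had 12.5 ± 2.06 normalized reads in untreated cells and 21.0 ± 4.91 with DAC + ATRA (SD, n = 3) in its leading coding transcript and was not called (log2 fold change 0.69, adjusted p = 0.0529, limma). Own bases of this B2M transcript were not determined, so its count says little about the level of the gene.

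**Figure D4:**
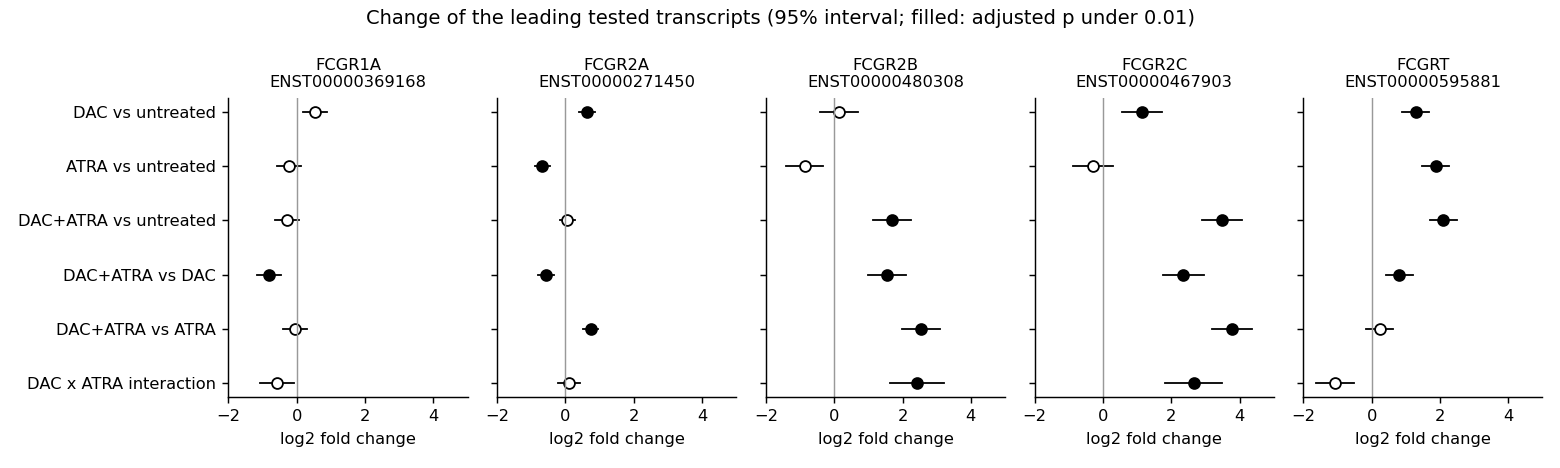
Points give the log2 fold change (x axis) of the leading tested transcript of 4 members and of FCGR2C in 6 comparisons, with 95% intervals as lines, and filled points have an adjusted p below 0.01. The interaction is called for FCGR2B (2.42) and FCGR2C (2.66), and FCGR2A changes sign between DAC (0.63) and ATRA (-0.68).

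Of the 7 member transcripts in the fit over all transcripts, 3 reached 10 normalized reads in no untreated library (FCGR2A ENST00000467525, FCGR2B ENST00000485778 and FCGRT ENST00000598319) and are left out of the counts that follow. Of the other 4, 2 were called higher and 0 lower with DAC + ATRA, where 25.5% of all transcripts were called higher and 16.1% lower. With DAC 2 were higher and 0 lower, against 22.2% and 11.3% of all transcripts. With ATRA FCGRT ENST00000595881 was higher and FCGR2A ENST00000271450 lower, against 5.11% and 1.87%. DAC + ATRA against DAC gave 2 higher and 2 lower, against 5.18% and 3.59%, and DAC + ATRA against ATRA gave 2 higher and 0 lower, against 19.1% and 10.2%. In the interaction 1 was above 0 and none below, against 0.527% and 0.986%.

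FCER1G, the common gamma chain, gave 4 reads in all 12 libraries, 1 in library 5 and 3 in library 12. These fell on ENST00000367992 (chr1:161215279-161220699, plus strand). The other coding form, ENST00000289902, has no base of its own, so that these counts say little about the gene. FCGR3A, the receptor of natural killer cells and some monocytes, was at 0 in all 7 of its transcripts and all libraries, and its copy FCGR3B was at 0 as well. The IgA receptor FCAR was listed 126 times, 113 of them under identifiers not in GENCODE 44, and was at 0 throughout. A count of 0 allows up to 3 reads per library, or 2.50 to 3.71 normalized reads, which covers counting error only. Of the 13 placed FCAR transcripts, 11 have no base of their own, and of the 6 placed FCGR3A transcripts 1 has none and 3 have 3, 9 and 35 own bases, too few for a 50-base window. The FCAR transcripts ENST00000355524 and ENST00000469767 have 795 and 333 own bases. FCGR3A ENST00000476031 has 378 and ENST00000442336 has 102, and all of these were at 0 as well. Whether the identifiers not in GENCODE 44 share these bases was not examined. The zeros therefore say little about either gene beyond these transcripts.

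The genes that act with or after the receptors were examined through 1 coding transcript each, the one with the most reads. Own bases were not determined for these transcripts, so a low count says little about the level of the gene. In DAC + ATRA against untreated cells 32.6% of all 9016 protein-coding transcripts were called higher and 14.2% lower, and their median log2 fold change was 0.20. The list members were chosen by function, with earlier results of these data known. Genes that reached 10 normalized reads in no untreated or in no DAC + ATRA library entered the fit through other libraries and are left out of the counts below.

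Among 17 ITAM adaptors and partner chains, 7 had reads and 2 could be counted, and with DAC + ATRA neither was called. CLEC4D, a lectin receptor that uses the common gamma chain, had a mean of 36.7 normalized reads in untreated cells and 7.5 with DAC + ATRA, where it reached 10 in no library. The adaptor TYROBP (DAP12) was at 0 in its leading coding transcript. Among the 31 kinases and effectors below the ITAM, 12 could be counted, 3 rose and 2 fell, with a median log2 fold change of 0.06. The Src-family kinase LYN rose from 1638 to 2746 normalized reads (0.74) and the phospholipase PLCG2 from 1118 to 1799 (0.68). The adaptor LAT2 fell from 267 to 159 (-0.75). PLD1, a phospholipase D, had means of 29.7 and 4.4 and was not counted. The kinase SYK, which binds phosphorylated ITAMs, had a mean of 0.173 normalized reads in its leading coding transcript and was not tested.

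Among 34 actin and engulfment genes 19 could be counted, of which 6 rose and 2 fell with DAC + ATRA, with a median of 0.08. PIP5K1A, a lipid kinase, went from 0.3 to 19.1 normalized reads and ELMO1, which works with DOCK proteins in engulfment, from 0.6 to 14.8, so that both were near 0 in untreated cells and were not counted. MARCKS, an actin-linked membrane protein, fell from 817 to 329 (-1.36), a call lost with no filter (adjusted p = 0.0344) and without library 1, 2, 3, 8 or 9 (adjusted p up to 0.0155), and CRKL, an adaptor, from 4726 to 3890 (-0.28), a call that most omissions of 1 library ended. Among 13 genes of the inhibitory ITIM branch 11 were tested, 3 rose and 2 fell, with a median of 0.44. DOK2 (1.39) and UBASH3B (0.61), which dampen tyrosine kinase signals, rose, and the phosphatase PTPN11 (-0.41) fell. The phosphatases INPP5D (SHIP1) and PTPN6 (SHP1) were not called, INPP5D at a log2 fold change of -0.36 (adjusted p = 0.147) and PTPN6 at 0.95 (adjusted p = 0.0332), which passed without library 2 (1.31, adjusted p = 0.00803).

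Among 10 factors known to act on Fc receptor promoters, 8 were tested and 5 rose and 0 fell with DAC + ATRA, with a median of 0.80. IRF1, an interferon-response factor, went from 53.5 to 694 normalized reads (3.67) and CEBPE, a granulocytic factor, from 256 to 1693 (2.72), while STAT3 (0.86) and CEBPA (0.74) rose less, and the CEBPA call was lost with no filter (adjusted p = 0.0259). SPI1, which encodes PU.1 and was added after its value was seen, was not called (-0.10, adjusted p = 0.586). Of 15 other Fc-binding and Fc receptor-like genes only TRIM21, a cytosolic antibody receptor, could be counted. It rose from 495 to 1199 normalized reads (1.27). PIGR, which transports polymeric IgA, was at 0 in all untreated libraries and had a mean of 18.4 with DAC + ATRA.

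**Figure D5:**
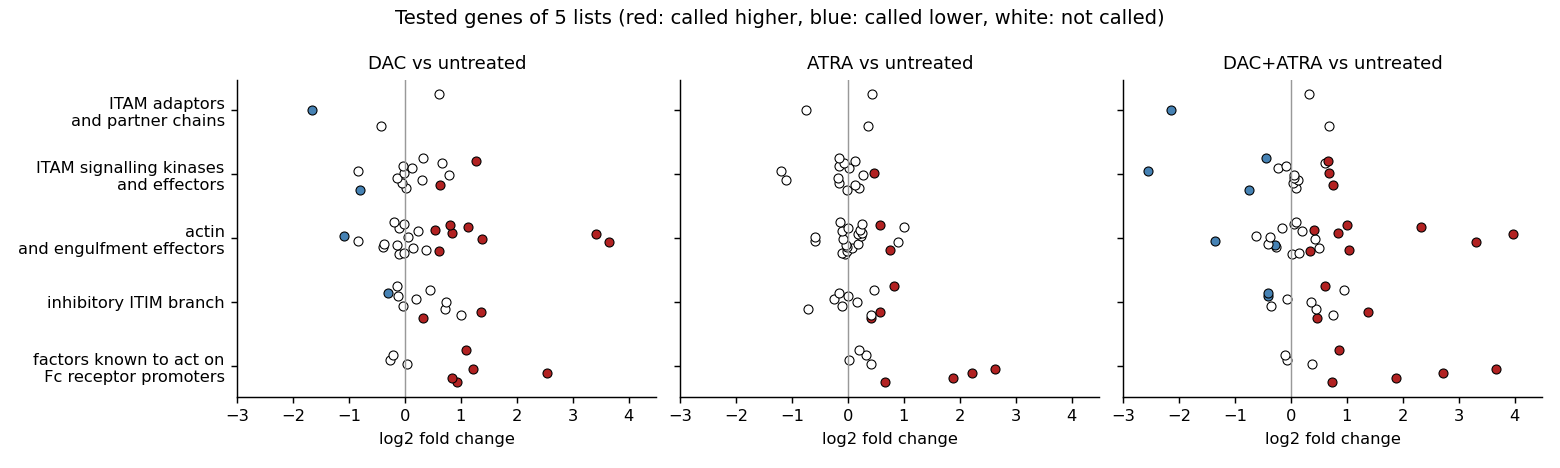
Each point is 1 tested gene of 5 lists (rows), and the x axis is its log2 fold change against untreated cells with DAC, ATRA or both. Red points were called higher, blue lower and white not called; in DAC + ATRA 8 of 22 actin and engulfment genes are red and 2 blue, and the red points include PIP5K1A and ELMO1, which reached 10 normalized reads in no untreated library.

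The 9016 tested transcripts were also ranked by how closely they followed the activating receptors over the 12 libraries, given here as a description with points that share their treatments. The nearest to FCGR1A were POFUT1 (Pearson r = 0.948), ELOVL3 (0.945) and FOXRED2 (0.927). The nearest to FCGR2A were GDF7 (0.977), RGS18 (0.974) and MAST1 (0.972). RGS18, a regulator of G-protein signalling, had means of 567, 1070, 191 and 561 normalized reads in untreated, DAC, ATRA and DAC + ATRA cells. As for FCGR2A, its mean was highest with DAC and lowest with ATRA.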

How the data were processed

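RNA-seq of 12 U937 libraries was analysed, 3 per group, with groups from the labels. According to the study's methods the authors used FastQC for read quality, STAR for alignment (hg38), htseq-count for counting and DESeq2 for testing, and versions, counting mode and strand setting are not given in the sources used here. The deposited signal values are read counts per transcript that the authors divided by 1 size factor per library. Whole reads were recovered for 100% of values (tolerance 0.01), and 8042435 to 10683593 reads were counted per library. A count of 0 allows up to 3 reads, or 2.50 to 3.71 normalized reads, and such limits cover counting error only. No column belonged to other samples (0).

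Values were tested as log2(normalized read count + 1) with limma 3.58.1 (trend and robust options, R 4.3.3) in 1 fit of all 12 libraries, over 9016 protein-coding transcripts with at least 10 normalized reads in at least 3 libraries, at a Benjamini-Hochberg adjusted p below 0.01. Non-coding member transcripts came from the same fit over 19373 transcripts. Fold changes on this scale understate those of low transcripts. Exact permutation tests were two-sided. The script was tested on simulated counts. Alternatives used edgeR 4.0.16, DESeq2 1.42.0, other scalings, filters and pseudocounts, sums by symbol, and omission of each library. Own bases were counted in GENCODE 44, and promoters came from RefSeq. Python 3.11.15 with numpy 2.4.6, pandas 2.3.3, scipy 1.17.1, matplotlib 3.10.9 and biopython 1.88 was used.

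A member was described by its leading protein-coding transcript and by further transcripts with a mean of at least 10 normalized reads. From each pathway list the 2 highest and 2 lowest called changes with DAC + ATRA were named, plus TYROBP, SYK, INPP5D, B2M and PTPN6, and some genes that this rule names are not reported here. The members and lists were chosen with earlier results of these data known.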

Additional observations from a re-analysis of the deposited data

Results flagged for a closer look

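The effect of DAC differed with and without ATRA for 2 transcripts by the interaction term of the limma fit over all transcripts. For FCGR2C ENST00000467903 the interaction was 2.66 on the log2 scale (adjusted p = 1.50e-04), and for FCGR2B ENST00000480308 it was 2.42 (adjusted p = 3.48e-04). Both genes share the sequence before their start and were measured in the same libraries, so these are not counted as independent observations.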

How the results depend on the processing

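No paired analysis was possible because the table's columns carry the group but not the replicate number of the labels. With 1 library left out, 474 of 504 member log2 fold changes kept direction and side of the threshold, 13 lost and 7 gained a call and 10 changed sign. Under the other alternatives 379 of 389 did, 2 lost and 3 gained a call and 5 changed sign. One alternative, TMM without DAC library 6, was chosen after seeing the data, because its size factor is near 1.

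With at least 10 reads in every library, calls went from 3547 to 2309 with DAC, from 4215 to 2769 with DAC + ATRA, from 3136 to 1957 against ATRA and from 222 to 137 for the interaction, since fewer transcripts were tested. In the fit over all transcripts they went from 6485 to 3906, from 8065 to 4737, from 5688 to 3282 and from 293 to 173. Testing all transcripts gave 6485 calls with DAC, 1351 with ATRA (824 coding), 8065 with both, 1699 against DAC (1022 coding) and 5688 against ATRA. The interaction gave 341 calls with DESeq2 and, over all transcripts, 194 with a pseudocount of 0.1. Without 1 library it gave 148 to 483 calls, the most without ATRA library 9, and 206 to 571 over all transcripts.

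Fc receptor genes called went from 1 to 2 with DAC when only the compared groups were fitted, and without a filter from 0 to 2 with DAC + ATRA (the coding transcripts of FCGR2B and FCGRT, each with 5 reads or fewer in every untreated library) and from 1 to 2 against ATRA. Without 1 library the number was 1 to 2 with DAC, 1 to 2 against DAC and 1 to 2 for the interaction over all transcripts.

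FCGR2A with DAC + ATRA was at -0.0889 by library size, -0.0818 with TMM, -0.0816 with DESeq2's size factors, -0.081 with DESeq2 and -0.0985 without library 6. FCGR1B ENST00000615565 with DAC was at -0.104, -0.0714, -0.0373, -0.0365 and -0.0341 in the same order, and with DAC + ATRA at 0.0749 summed by symbol. FCGR2C ENST00000543859 with ATRA was at -0.0205 with a pseudocount of 0.1. Without 1 library, values crossed 0 for FCGR1A against ATRA (-0.24 to 0.0753), FCGR2C ENST00000543859 with ATRA (-0.25 to 0.58), FCGR1B ENST00000369384 with ATRA (-0.63 to 0.0702) and in the interaction (-0.37 to 0.33), and FCGR1B ENST00000615565 with DAC (-0.24 to 0.16). They also did for FCGR2A ENST00000467525 against DAC (-0.0408 to 0.32), FCGR2B ENST00000480308 with DAC (-0.0412 to 0.34), FCGR2B ENST00000485778 with ATRA (-0.33 to 0.42) and FCGRT ENST00000598319 in the interaction (-0.39 to 0.0892). None of these was called in the reported fit. The cause was not tested.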
